A study of Brassica rapa with 9 samples.

Results

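Transgenic Kimchi cabbage (Brassica rapa, cultivar Chiifu) carrying a mutant Arabidopsis thaliana phytochrome B was compared with transgenic plants carrying the unmodified receptor. The comparison took all 3 libraries whose titles begin with G564E and all 3 titled AtPHYB, 6 of the 9 libraries of the series. G564E plants carry a phytochrome B in which the glycine at residue 564 is replaced by glutamate, AtPHYB plants carry the receptor without that change, and the non-transgenic plants (NT, 3 libraries) are used below only to show the level without a transgene. RNA was taken from whole seedlings at 2 weeks, grown on MS medium with sucrose and without heat treatment. The promoter of the transgenes, the number of independent lines and whether a replicate was 1 plant or a pool were not given in the sources used here. The p-values therefore rest on the spread between these libraries, part of which may be technical, and the receptor cannot be told apart from any other difference between the transgenic lines.

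Phytochrome B senses red and far-red light and switches between an inactive and an active form. The active form enters the nucleus, where it promotes the removal of PIF transcription factors and so changes the expression of genes for greening, growth and shade responses. In Arabidopsis, glutamate at this glycine is known to slow the return of the active form to the inactive form in darkness and to make seedlings more sensitive to light. The files give gene IDs without names, so no gene is assigned here to these pathways, and the described groups are groups by level, by size of change and by ID number. In whole seedlings, fewer cells of a type and less RNA per cell cannot be told apart.

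The G564E libraries held 18364911, 15262884 and 18505069 counts in replicates 1, 2 and 3, and the AtPHYB libraries held 19299929, 17868681 and 19581461. G564E replicate 1 stood apart from replicates 2 and 3. Between replicates 2 and 3, 40 tested genes lay at least 4-fold apart on the log2(CPM + 1) scale, where CPM (counts per 1e6) follows TMM scaling. From replicate 1, 648 genes lay that far in replicate 2 and 723 in replicate 3. Between AtPHYB libraries this number was 44 to 119. The biological coefficient of variation, edgeR's measure of relative spread between replicates, was 0.39 in G564E and 0.183 in AtPHYB, and without G564E replicate 1 it was 0.162 in G564E. Where a count was recomputed without replicate 1 and moved by over 1.5 times, that value is given too.

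With TMM scaling, nearly equal numbers of genes were higher and lower in G564E than in AtPHYB. Of 27348 genes tested, 4405 were higher and 4090 lower (edgeR quasi-likelihood test on the 6 libraries, Benjamini-Hochberg adjusted p under 0.05), which is 31.1% of the tested genes, 16.1% higher and 15.0% lower. The genes that were higher had a median log2 fold change of 1.44, and those that were lower one of -1.18. Among larger changes a larger share was higher in G564E. At least 2-fold changes numbered 3103 higher and 2462 lower, at least 4-fold changes 1440 higher (5.27% of tested genes) and 924 lower (3.38%), and at least 16-fold changes 390 higher and 207 lower. Of the last group, 70 higher genes had no read in AtPHYB and 58 lower genes had none in G564E. The fitted folds of these genes depend on the tool's prior count. Without G564E replicate 1, called genes at least 4-fold apart numbered 1879 higher and 1629 lower, which is closer to an even split. The libraries of the genotypes did not overlap at 8474 of the 8495 called genes, but the same held for 51.1% of all tested genes, including 5497 that were not called.

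The split of directions depended on scaling. With library sizes alone in place of TMM, 9673 genes were higher and 2306 lower, so that 80.7% of calls were higher in G564E against 51.9% with TMM, and the median log2 fold change of all tested genes moved to 0.47 from 0.05. Leaving out any 1 of the 6 libraries moved the count of 8495 by over 1.5 times. It became 13815 without G564E replicate 1 (6837 higher and 6978 lower), 5598 without replicate 2 and 5640 without replicate 3. Without AtPHYB replicates 1, 2 and 3 it was 5441, 4641 and 4500. A total of 3873 genes were called with all libraries and in each of the 6 fits that left out 1 library.

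**Figure D1:**
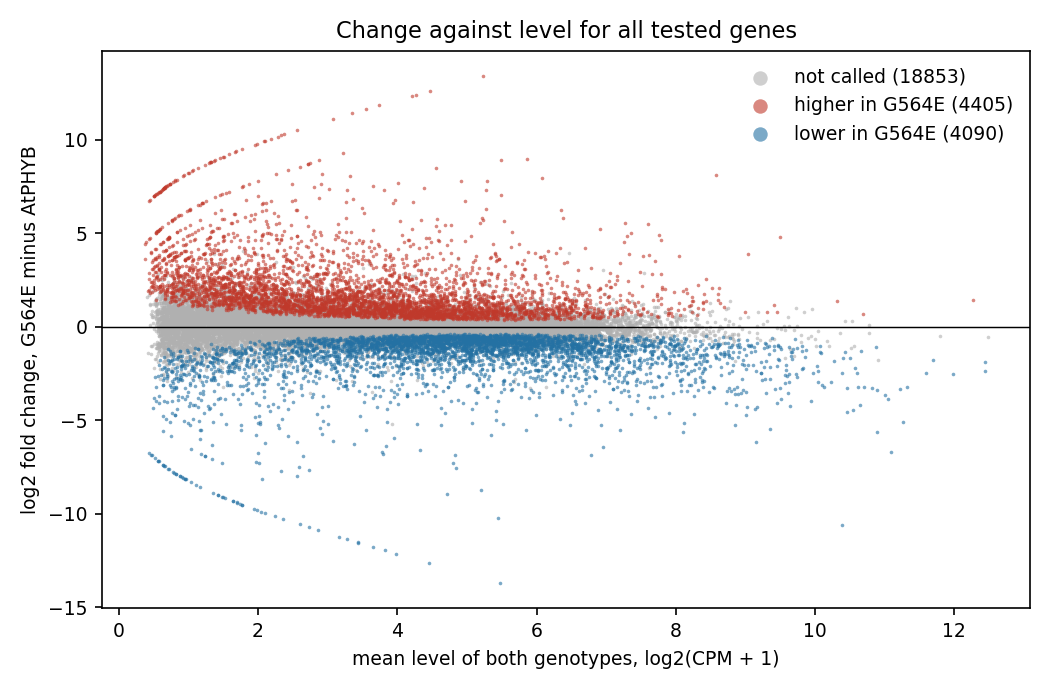
Log2 fold change of G564E minus AtPHYB (vertical axis) against the mean level of both genotypes as log2(CPM + 1) (horizontal axis), 1 point per tested gene. Red points are the 4405 genes called higher in G564E, blue points the 4090 called lower and grey points the 18853 not called. Blue points outnumber red ones toward the right, and the curved rows at both edges are genes without reads in one genotype, whose fold is set by the prior count.

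The 4 IDs described by name were taken by a rule that asks for a call in every leave-one-out fit, no overlap, at least 20 CPM in each library of the higher genotype with no more than 2-fold between those libraries, and at least 4 reads in the other genotype. A total of 394 higher and 1644 lower genes met it, and the 2 with the largest change in each direction are given, for which these conditions fix the direction. Bra033051 had 35.9, 59.5 and 39.7 CPM in G564E replicates 1, 2 and 3, against 0.0554, 0.0678 and 0.226 CPM in AtPHYB replicates 1, 2 and 3. It was at 0.0603, 0 and 0.760 CPM in NT. Every G564E library thus stood far above the AtPHYB and NT libraries. On the log2 scale Bra033051 was 8.49 ± 0.44 higher in G564E (fold change ± SE, edgeR adjusted p = 0.000427). Its AtPHYB level rests on 1, 1 and 4 reads, so the fold is imprecise and the SE may understate its error.

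Bra039051 had 22.5, 33.1 and 34.8 CPM in G564E and 0.111, 0.136 and 0.170 CPM in AtPHYB, and in NT it split, with 5.61 and 5.82 CPM in replicates 1 and 2 and 0.109 CPM in replicate 3. Its log2 fold change between the transgenic genotypes was 7.70 ± 0.31 (SE, edgeR adjusted p = 0.000247). The AtPHYB level rests on 2, 2 and 3 reads, with the same limit as for Bra033051. NT replicate 3 thus lay at the AtPHYB level and NT replicates 1 and 2 lay between the transgenic genotypes.

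Bra034245 was among the 100 IDs with most counts in AtPHYB and had few reads in G564E. It had 1.46, 1.64 and 2.13 CPM in G564E and 2143, 3476 and 2392 CPM in AtPHYB. On the log2 scale the difference was -10.6 ± 0.41 (SE, edgeR adjusted p = 0.000236). In NT it stood at 975, 1.87 and 1977 CPM in replicates 1, 2 and 3. NT replicate 2 was thus at the G564E level although it is labelled as non-transgenic. Bra013316 had 0, 0.113 and 0.0927 CPM (0, 2 and 2 reads) in G564E and 80.8, 92.3 and 83.5 CPM in AtPHYB. The log2 difference was -10.2 ± 0.42 (SE, edgeR adjusted p = 0.000247), with the same limit as for Bra033051. Bra013316 had no read in NT replicates 1 and 2 and stood at 100.4 CPM in NT replicate 3. For 3 of the 4 IDs, Bra039051, Bra034245 and Bra013316, the NT libraries thus lay far apart. Bra033051 was low in every NT library, but its 1, 0 and 14 reads in NT replicates 1, 2 and 3 were not alike either.

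With TMM scaling, genes that were lower in G564E were more frequent among abundant transcripts. Levels here are counts per gene without correction for gene length, so a rank is one of counts. When the tested genes were put in 4 classes of 6837 by the mean CPM of both genotypes, 1310 genes were higher and 485 lower in the least abundant class, 1251 and 674 in the second, 1054 and 1094 in the third, and 790 and 1837 in the most abundant class. The median log2 fold change by class was 0.36, 0.15, -0.01 and -0.17 in the same order. Of the 100 most abundant genes, 66 were lower and 3 higher, while 31 were not called. Their median log2 fold change was -1.64 (quartiles -2.76 and -0.71). Without G564E replicate 1, 75 of the top 100 were lower, 7 higher and 18 not called. In the most abundant class 26.9% of genes were lower, against 15.0% of all tested genes, and in the least abundant class 19.2% were higher, against 16.1%. Without G564E replicate 1 the least abundant class held 1622 higher and 1323 lower genes, the second 1892 and 1303, the third 1700 and 1767 and the most abundant 1412 and 2494, so that lower genes were still most frequent in the most abundant class, whereas higher genes were no longer most frequent in the least abundant one.

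A ranking that includes AtPHYB places genes high partly because they are high there, so other rankings were set beside it. Ranked by NT, which takes no part in the test, 73 of the top 100 were lower and 3 higher, and the classes held 1697 higher and 415 lower genes at the low end and 554 and 1999 at the high end. NT libraries lie nearer to AtPHYB than to G564E, so the same holds in part for this ranking. Ranked by G564E alone, 26 of the top 100 were lower and 23 higher, with a median log2 fold change of -0.12, and the 4 classes held 935 higher and 846 lower, 1187 and 852, 1127 and 1090, and 1156 and 1302 genes. With library-size scaling the most abundant class turned to 2225 higher and 1069 lower genes, while of the 100 most abundant genes under that scaling 56 were lower and 10 higher.

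**Figure D2:**
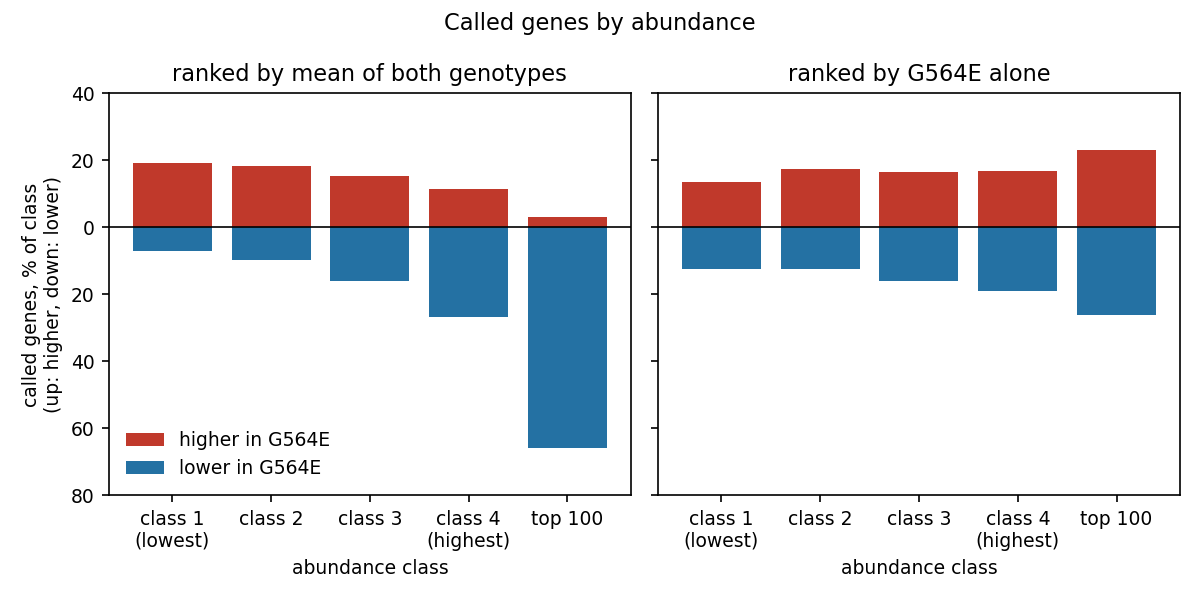
Called genes as a percentage of each abundance class, from the least abundant class 1 to class 4 and for the top 100, with genes higher in G564E drawn upward in red and genes lower in G564E drawn downward in blue. Ranked by the mean of both genotypes (left) 66% of the top 100 were lower and 3% higher; ranked by G564E alone (right) 26% were lower and 23% higher.

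Levels differed with direction. The 1440 genes at least 4-fold higher had a median of 6.10 CPM in G564E, 0.646 CPM in AtPHYB and 1.31 CPM in NT. The 924 genes at least 4-fold lower had a median of 3.35 CPM in G564E, 27.2 CPM in AtPHYB and 19.3 CPM in NT. The choice by fold itself pushes these groups apart in AtPHYB and, in the reverse direction, in G564E, so the levels are a description. At this size their order in G564E was the opposite of that in AtPHYB, which this choice favours, and of that in NT. The quartiles in G564E overlapped, at 2.48 and 21.0 CPM for higher genes and 0.359 and 24.6 CPM for lower genes. Among genes at least 2-fold apart, higher genes had a median of 9.21 CPM in G564E and lower genes 11.5 CPM. That was the order seen in AtPHYB and NT.

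The G564E transcriptome was more evenly spread over genes. The 100 most abundant genes of each library took 11.1%, 11.8% and 11.5% of its counts in G564E replicates 1, 2 and 3, and 18.4%, 21.3% and 19.0% in AtPHYB. The groups did not overlap, and the means differed by -8.08 percentage points (exact permutation test, 2-sided, p = 0.1, the smallest that 3 against 3 libraries allow). The share was 17.9 ± 0.382% in NT (SD, n = 3). To reach 50% of all counts, 2327, 2300 and 2365 genes were needed in G564E and 1335, 1042 and 1263 in AtPHYB, against 1502, 1498 and 1355 in NT (G564E against AtPHYB, exact permutation p = 0.1). The single most abundant gene took 0.916 ± 0.190% of counts in G564E and 0.851 ± 0.0445% in AtPHYB (SD, n = 3 each), groups that overlapped (exact permutation p = 0.7).

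The lists of abundant genes also changed. Of the 100 most abundant genes of a library, 31 to 45 were shared between a G564E and an AtPHYB library, against 83 to 93 between AtPHYB libraries. Within G564E, replicates 2 and 3 shared 80 and replicate 1 shared 54 and 49 with them. After thinning every library at random to 15262884 counts, 32599, 31758 and 31862 gene IDs had at least 1 read in G564E and 31571, 30628 and 31326 in AtPHYB, a difference in means of 898 IDs (exact permutation p = 0.1). All G564E libraries were above all AtPHYB libraries at this equal total, which leaves fewer counts for the other genes where the most abundant genes take more, as in AtPHYB. Without thinning the libraries overlapped (exact permutation p = 0.2). Over these 5 permutation tests the Benjamini-Hochberg adjusted p was 0.167 for the 3 with p = 0.1, 0.25 for the unthinned IDs and 0.7 for the first gene, and no test of this size can reach 0.05.

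Genes called higher in G564E took 18.8 ± 1.5% of counts in G564E and 5.62 ± 0.571% in AtPHYB, and those called lower took 19.7 ± 0.898% in G564E and 47.0 ± 2.29% in AtPHYB (SD, n = 3 each). These sums follow from the calls and are given as a description. In NT, which the calls did not use, the same genes took 7.50 ± 0.771% and 41.3 ± 2.44% of counts. The TMM scaling factors, which offset such differences in make-up, were 1.16 to 1.23 in G564E and 0.826 to 0.937 in AtPHYB, and their part in the direction of the calls is shown by the library-size values above.

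**Figure D3:**
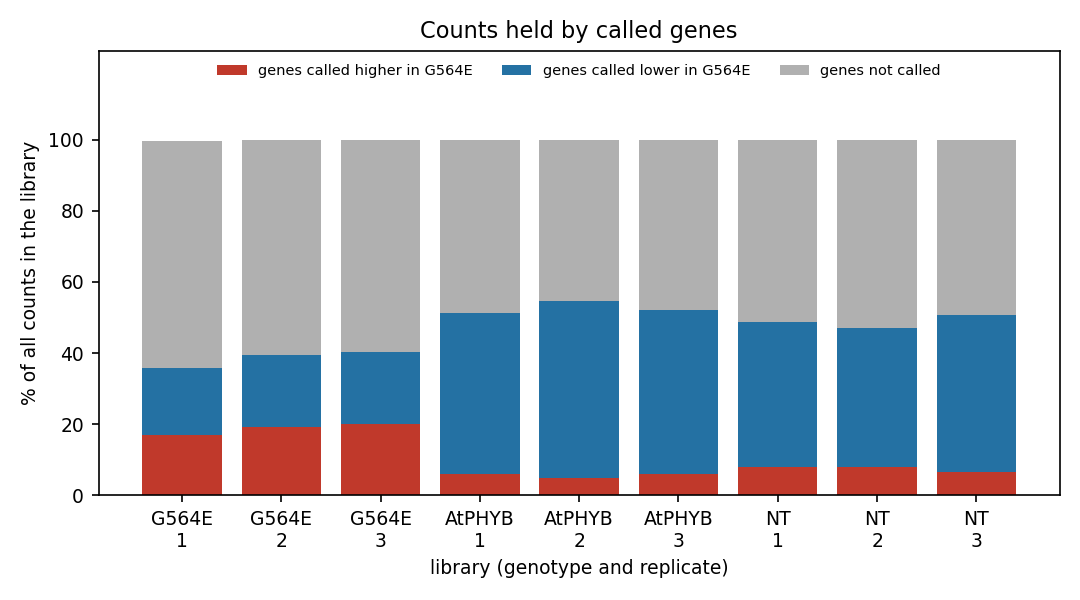
Percentage of all counts in each library (vertical axis) that fell on genes called higher in G564E than in AtPHYB (red), called lower (blue) and not called (grey), for the 9 libraries. Genes called lower in G564E hold 18.7% to 20.3% of counts in G564E libraries, 45.2% to 49.6% in AtPHYB libraries and 39.2% to 44.0% in NT libraries.

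Libraries that took no part in a call were used to read how far the difference carried over. For each library left out in turn, genes were called on the other 5, and the left-out library was placed on a scale where 0 is the mean of the remaining AtPHYB libraries and 1 the mean of the remaining G564E libraries, on log2(CPM + 1). AtPHYB replicates 1, 2 and 3 lay on the AtPHYB side of the midpoint at 96.5% of 5441, 97.2% of 4641 and 98.6% of 4500 genes. G564E replicates 2 and 3 lay on the G564E side at 95.1% of 5598 and 94.9% of 5640 genes. For each of these 2 G564E libraries, the fit kept the other, from which it differed little. These 5 libraries thus took the side of their own genotype at nearly all genes called without them.

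G564E replicate 1 did so at 61.5% of the 13815 genes called without it, with a median place of 0.69. At the 3508 of these genes that were at least 4-fold apart the share was 61.1%, against 95.6% to 96.9% for G564E replicates 2 and 3 at genes of that size. At that size it was 61.5% at genes called higher and 60.8% at genes called lower, and among all 13815 genes it was 58.0% and 65.0%. At 15.6% of the 13815 genes, replicate 1 lay beyond the AtPHYB mean. The fit without replicate 1 rests on replicates 2 and 3, which differ little, and it carries a narrower spread than the genotype showed with all 3. Every other fit kept replicate 1, so its genes were called despite the spread that replicate 1 adds. The shares of replicate 1 and of the other libraries therefore come from unlike sets of genes. With all 6 libraries, replicate 1 was the G564E library nearest to AtPHYB at 57.1% of the genes called higher and at 34.5% of those called lower.

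NT lay on the AtPHYB side of the midpoint at most of the called genes. On the same scale, at the 8495 genes called on all 6 libraries, the NT mean had a median place of 0.20 (quartiles 0.02 and 0.42) and lay on the AtPHYB side at 80.8% of genes. The values were alike for genes higher in G564E (median 0.20, 81.3%) and for those lower in G564E (0.21, 80.4%). NT replicates 1 and 2 had medians of 0.24 and 0.25 and lay on the AtPHYB side at 72.0% and 71.9% of genes, and NT replicate 3 had a median of 0.08 and lay there at 89.5%. NT replicate 3 was therefore nearer to the transgenic AtPHYB libraries than the other NT libraries were. Over all tested genes, 163, 188 and 100 lay at least 4-fold apart between NT replicate 3 and AtPHYB replicates 1, 2 and 3. From NT replicates 1 and 2, 207 and 263 genes lay that far. By this count NT replicate 3 was nearer to every AtPHYB library than to either other NT library. Of the 100 most abundant genes, NT replicate 3 shared 88, 81 and 91 with AtPHYB replicates 1, 2 and 3. It shared 83 and 82 with NT replicates 1 and 2, so AtPHYB replicate 2 was not nearer by that measure. The NT mean thus joins libraries that differ, and the reason was not tested. All 3 NT libraries lay on the AtPHYB side at 60.5% of called genes and all 3 on the G564E side at 4.92%. At 14.4% of called genes NT replicates 1 and 2 lay on the G564E side and NT replicate 3 on the AtPHYB side, whereas the opposite pattern was seen at 2.77%. Among the 2364 genes at least 4-fold apart these shares were 11.8% and 2.20%, and among the 597 at least 16-fold apart they were 20.3% and 1.17%.

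**Figure D4:**
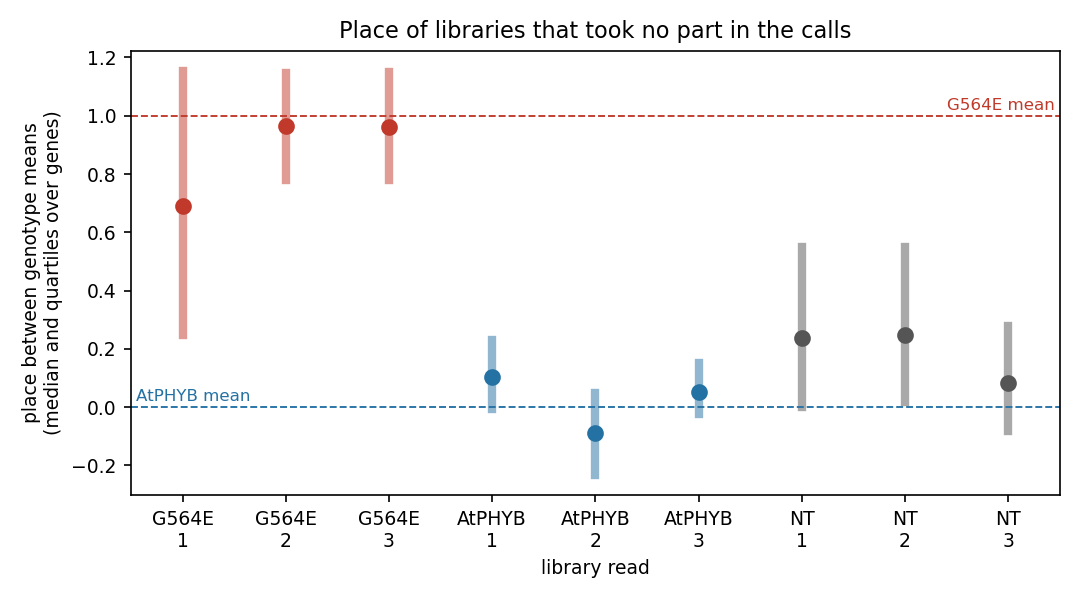
Place of each library between the AtPHYB mean (0) and the G564E mean (1) on log2(CPM + 1), with the dot at the median over genes and the bar from the lower to the upper quartile. G564E and AtPHYB libraries are read at genes called without them, a different set for each library. NT libraries are read at the 8495 genes called on all 6 libraries. G564E replicate 1 has its median at 0.69, below 0.96 for G564E replicates 2 and 3, and NT replicate 3 at 0.08, below 0.24 and 0.25 for NT replicates 1 and 2.

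Some genes were read in one transgenic genotype and never in the other. A total of 12 genes had at least 5 CPM in all 3 G564E libraries and no read in any AtPHYB library, and 17 had at least 5 CPM in all 3 AtPHYB libraries and no read in any G564E library. Without G564E replicate 1 these numbers were 22 and 20. All 29 passed the edgeR test at an adjusted p under 0.05, against 31.1% of tested genes, which follows from how they were chosen. The 12 genes averaged 5.95 to 72.9 CPM in G564E, at least 99.0-fold to at least 1235-fold above a floor of 3 counts over the AtPHYB libraries. The 17 genes averaged 5.71 to 86.7 CPM in AtPHYB, at least 117-fold to at least 1781-fold above the same floor over the G564E libraries. These bounds cover counting error only, since PCR copies are not independent molecules.

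The NT libraries already differed among themselves at most of these 29 genes. Of the 12 genes read in G564E only, 9 stood at 1 CPM or more in NT replicate 1, 8 in NT replicate 2 and 0 in NT replicate 3, where 9 had no read at all. Of the 17 genes read in AtPHYB only, 2, 1 and 16 stood at 1 CPM or more in NT replicates 1, 2 and 3, and 14 had no read in NT replicate 1 and 14 none in NT replicate 2. At 8 of the 12 and 14 of the 17 genes, NT replicates 1 and 2 thus had the state of G564E and NT replicate 3 the state of AtPHYB. What sets the state of these genes in NT was not tested. Of the 17, 1 was at 0.2 CPM or less in all 3 NT libraries.

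**Figure D5:**
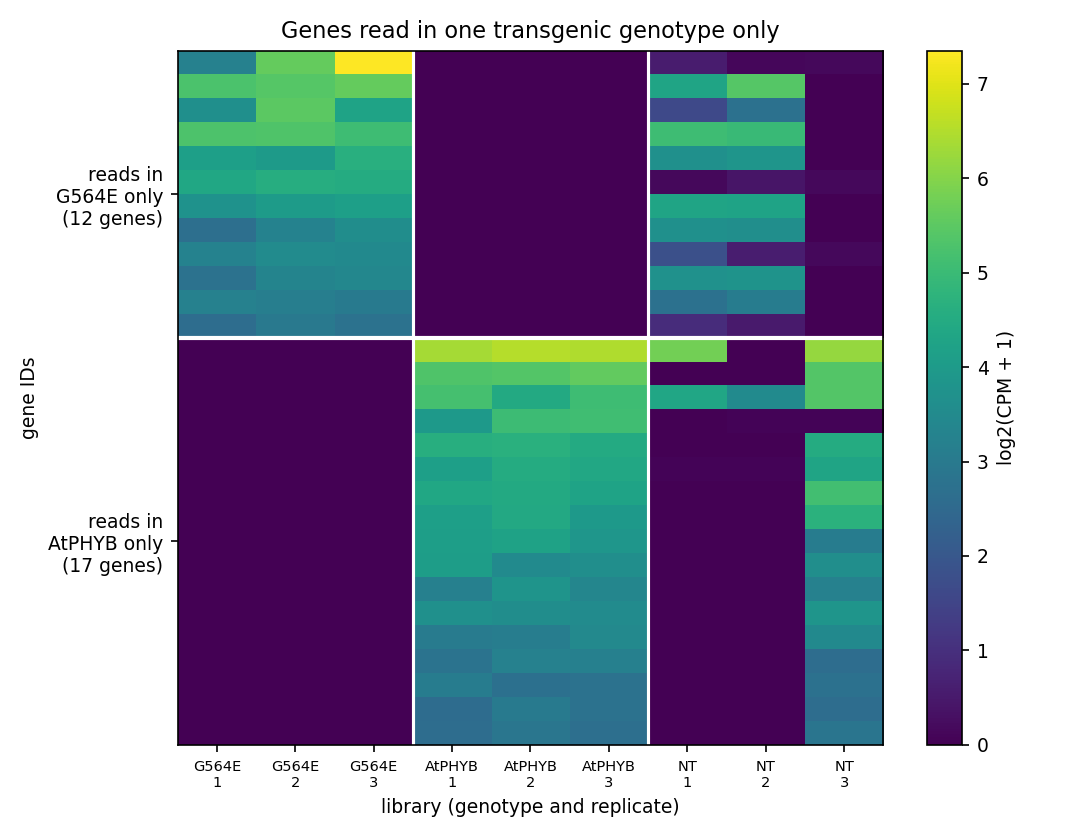
Level as log2(CPM + 1) (colour) of the 12 genes with reads in G564E only (upper block) and the 17 with reads in AtPHYB only (lower block), 1 gene per row and 1 library per column. In the NT columns, replicates 1 and 2 resemble G564E and replicate 3 resembles AtPHYB at 8 of the 12 and 14 of the 17 genes.

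Called genes with consecutive ID numbers tended to share a direction. Among 19377 pairs of tested IDs whose numbers differ by 1, both were called in 2045 pairs, and in 60.2% of these the direction was the same (630 pairs higher, 601 lower and 814 opposite). At a distance of 2 the share was 54.4%, at 5 it was 50.0%, and at 1000 it was 49.8%. Among genes at least 4-fold apart it was 76.5% of 221 pairs at a distance of 1, 64.7% of 167 pairs at 2, 62.0% of 137 pairs at 5 and 51.0% of 147 pairs at 1000. Most runs were short. A total of 3251 genes called higher and 2988 called lower stood alone, 434 higher and 422 lower runs held 2 genes, 74 and 61 held 3, and 16 and 16 held 4, and the longest were 1 run of 5 and 1 run of 6 lower genes. The files give no positions, so distances between ID numbers are not distances on a chromosome, and copies that share reads could not be examined.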

How the data were processed

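Total RNA was treated with DNase and made into stranded mRNA libraries, per the labels' protocols. The authors deposited raw counts of reads per gene ID (whole numbers, with 1 file for each library). FastQC 0.11.8, Trimmomatic 0.39, TopHat2, HTSeq and edgeR are named, per the submitters' processing notes; the build, annotation, strand option and tool settings were not given in the sources used here. Of 41020 IDs, 5546 had no read in the 6 libraries. A table of 51589 genes of the CAAS_Brap_v3.01 assembly matched 1 ID, so gene lists and tissue markers set by symbol were not filled, the genotype was not checked by the introduced gene, and IDs carry no names.

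From these counts, genes were kept with filterByExpr, scaled by TMM and tested with edgeR 4.0.16 in R 4.3.3 (quasi-likelihood, 2-sided, a mean per genotype, G564E and AtPHYB libraries only, Benjamini-Hochberg over 27348 genes). Standard errors are the log2 fold change over the square root of its F statistic. They may understate the error of a fold where the lower genotype has few reads. Printed CPM values use TMM factors over all 9 libraries. Alternatives used DESeq2 1.42.0, limma 3.58.1, other scalings, filters, thresholds and single libraries left out. The test was checked on simulated data with known changes, where it missed nearly all of the smaller ones and recovered most of the larger ones. Few genes were changed in that simulation, against 31.1% of tested genes called here, so its outcome does not give the missed share in these data. Libraries held 15262884 to 20998541 counts. No 2 libraries of a genotype agreed within sampling noise (chi-square per degree of freedom of 11.4 or more in each pair). Both genotypes carry replicate numbers 1 to 3, which are the only source of the pairing. Deviations from the genotype means correlated across genes at 0.42, 0.34 and 0.13 between libraries of the same number. G564E replicate 3 correlated at 0.19 with AtPHYB replicate 2 and G564E replicate 2 at 0.10 with AtPHYB replicate 3. The other unmatched pairs were below 0. Deviations within a genotype cancel out for each gene, so these correlations depend on each other and do not establish a pairing. A fit with the number as a block was therefore only an alternative. The rule for named IDs kept the 2 largest changes in each direction among IDs that met the conditions in the text. The comparison, groups and rules were chosen with earlier results of these data known.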

Additional observations from a re-analysis of the deposited data

How the results depend on the processing

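The 8495 calls became 3574 at an adjusted p under 0.01, 5565 with at least 2-fold change, and 4500 to 13815 when 1 library was left out; other settings gave 7977 to 11979. The higher share was 80.7% with library sizes alone, 48.0% in limma-voom, 50.3% with the replicate block, 45.9% and 55.8% under those stricter thresholds, and 41.6% to 49.6% when 1 library was left out (the cause was not tested). The replicate block gave 9251 calls, 7830 of them among the 8495, and no named ID lost its call. All 56 recomputed values of the 4 named IDs kept direction and call, which the rule for naming them favours. Ranked by G564E alone, 26 of the top 100 were lower. Genes read in one transgenic genotype only numbered 17 at 10 CPM and 79 at 1 CPM. The coefficient of variation was 0.162 to 0.449 in G564E and 0.155 to 0.230 in AtPHYB when 1 library of the genotype was left out. Shares of ID pairs in one direction were 54.4%, 50.0% and 49.8% at distances of 2, 5 and 1000, and 76.5% among genes at least 4-fold apart, a setting added after seeing the data, as were the reading of left-out libraries, shared top genes, shares of counts and NT sides. The median place of NT stayed between 0.18 and 0.25. With 3 libraries a genotype, small differences may be missed.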
